A study of Mus musculus with 18 samples.

Results

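The report concerns 37 genes of the G2 and M phases of the cell cycle, the mitosis genes, in bulk RNA sequencing of mouse alveolar macrophages. They were taken by symbol from the deposited table of 32789 genes, a rule that uses no measured value. The list itself was chosen with earlier results of these data known, so its counts beside those of all tested genes are descriptive. All 37 passed the filter on low counts that left 12900 genes to test. They comprise 7 mitotic kinases and cyclins, 4 genes of the chromosomal passenger complex and Aurora A, 6 of the spindle checkpoint and the anaphase-promoting complex, 6 of the kinetochore and centromere, 6 of the spindle, 6 of cytokinesis, and Mki67 and Top2a.

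Macrophages came from lavage of the airways and were enriched with CD11c beads on magnetic columns. There were 6 groups of 3 libraries. The Vhl/Hif1a knockout (labelled CD11c-Cre_Vhl-Hif1-KO) had conditional loss of Vhl and Hif1a, and its control (labelled Control Vhl-Hif1a_flox-flox) carried the floxed alleles. The Vhl/Hif2a knockout (CD11c-Cre_Vhl-Hif2-KO) had conditional loss of Vhl and Hif2a, the gene whose symbol is Epas1, with its own control (Control Vhl-Hif2a_flox-flox). The triple knockout (CD11c-Cre_Vhl-Hif1-Hif2-KO) had loss of all 3 genes, with its own control (Control Vhl-Hif1-Hif2a_flox-flox). Cre was driven by CD11c, so that other CD11c-positive cells could also recombine, and the labels do not say whether the controls lacked Cre. The labels used here give neither the age, strain or sex of the mice nor whether the libraries of a group came from separate mice, and p-values therefore measure the spread between these libraries, which may be technical. The product of Vhl targets HIF-1α and HIF-2α for breakdown in oxygen. By the labels, the comparisons ask how the mitosis genes stand when Vhl is lost together with one or both of these factors. All groups are named here by their labels, and the RNA of the targeted genes, given next, does not bear out every label.

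Vhl had 1.92 to 3.09 CPM (counts scaled to a common library size with TMM factors) in the libraries labelled as knockouts of the 3 crosses, against 12.2 to 20.1 CPM in the controls. Hif1a had 58.7, 78.6 and 61.6 CPM in the Vhl/Hif2a knockout, against 242, 179 and 231 CPM in its control. These groups were far apart, with a log2 fold change of -1.71 ± 0.18 (adjusted p = 4.3e-06) by edgeR, although Hif1a is not among the genes that the label names as deleted. It had 206, 209 and 166 CPM in the Vhl/Hif1a knockout, against 230, 225 and 232 CPM in its control, where the label does name it, and the log2 fold change was -0.24 ± 0.18 (adjusted p = 0.66). Triple cross libraries had Hif1a at 236, 241 and 239 CPM in the triple knockout, against 251, 137 and 238 CPM in its control, at 0.19 ± 0.18 (adjusted p = 0.56), so that Hif1a RNA was called lower in neither knockout labelled for its loss. Epas1 had 48, 56.1 and 58.6 CPM in the Vhl/Hif2a knockout, against 35.1, 23.2 and 24.7 CPM in its control. It was thus higher, at 0.97 ± 0.19 (adjusted p = 0.0019), in the libraries labelled as lacking it. Epas1 in the triple cross had 38.4, 30.6 and 33.7 CPM in the triple knockout, against 37.2, 51.4 and 32.6 CPM in its control, at -0.24 ± 0.19 (adjusted p = 0.51), and in the Vhl/Hif1a cross its log2 fold change was 0.46 ± 0.19 (adjusted p = 0.26). Counts over a whole gene include exons that a conditional allele may leave in place, so these values do not test the deletions, and whether the Vhl/Hif1a and Vhl/Hif2a labels name the factor that was lost was not tested.

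Entry into mitosis is driven by the kinase Cdk1 bound to B-type cyclins, and exit from it by the anaphase-promoting complex, which tags cyclins and securin for degradation. The genes of this programme are transcribed together in late S, G2 and M phase and are low in resting cells, under the control of the DREAM repressor complex and of the activators B-Myb and Foxm1. Alveolar macrophages maintain themselves in the adult lung largely by division in place, so a share of them is in the cycle at any time.

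The DREAM and B-Myb complexes contact the cell cycle genes homology region, or CHR, and the factor NF-Y binds the CCAAT box that often lies upstream of it. Promoters from RefSeq (build GRCm38.p6, 250 bases before to 50 bases after the start) were matched by symbol to 32 of the 37 genes, and Aurkb, Ccna2, Cdc25c, Kif20a and Tpx2 were not matched. Both strands were searched for the CHR letters TTTGAA, which read TTCAAA on the other strand, and the variant TTCGAA. They were also searched for CCAAT, which reads ATTGG on the other strand, and the ends of neighbouring matches may share a base. A CHR was present in 26 of the 32 genes (81.2%), against 21.7% of all genes with a promoter and 16.9% of the tested genes. A CCAAT box was present in 25 (78.1%), against 41.1% of all genes and 43.2% of the tested genes, and both were present in 23 (71.9%), against 8.61% of all genes and 7.16% of the tested genes. Within 50 bases of the start, a CHR was found in 24 genes (75%), against 6.12% of all genes and 4.35% of the tested genes. Birc5, Mad2l1, Nuf2 and Nusap1 held neither motif, Anln, Kif2c and Ndc80 held a CHR alone, and Ccnb1 and Cenpe held CCAAT alone. For 30 of the 32 genes the last 20 promoter bases lay in the early part of a GENCODE transcript of the gene. The Mad2l1 window ended at base 66535270, before the GENCODE start of the gene at base 66535390, so its search covered no base of that gene. The core of the hypoxia response element, ACGTG with the variant GCGTG, searched the same way, was found in 21 of the 32 genes (65.6%), against 46.7% of all genes and 66.9% of the tested genes. These are matches of letters and not tests of binding.

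Promoters are printed for the 4 matched genes that were lower in both double knockouts, and for Anln, the 1 gene of the set with no negative log2 fold change in any knockout. Capitals mark CHR and CCAAT letters on either strand, and the start lies after base 250. The coordinates are those of Ccnb1 (chr13:100786437-100786736, minus strand), Plk1 (chr7:122159185-122159484, plus strand), Bub1b (chr2:118597961-118598260, plus strand), Racgap1 (chr15:99651607-99651906, minus strand) and Anln (chr9:22389157-22389456, minus strand).
Ccnb1: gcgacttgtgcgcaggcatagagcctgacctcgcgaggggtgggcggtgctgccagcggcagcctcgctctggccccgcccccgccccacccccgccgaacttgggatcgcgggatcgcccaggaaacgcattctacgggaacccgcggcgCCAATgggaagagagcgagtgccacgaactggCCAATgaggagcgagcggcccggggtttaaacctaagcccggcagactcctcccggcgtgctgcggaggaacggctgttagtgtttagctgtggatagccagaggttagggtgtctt
Plk1: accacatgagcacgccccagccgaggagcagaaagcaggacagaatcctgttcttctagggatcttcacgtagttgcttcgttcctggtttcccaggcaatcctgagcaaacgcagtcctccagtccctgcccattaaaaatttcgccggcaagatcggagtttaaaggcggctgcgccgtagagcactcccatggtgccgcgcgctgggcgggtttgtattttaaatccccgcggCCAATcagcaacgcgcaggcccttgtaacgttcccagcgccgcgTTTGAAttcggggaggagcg
Bub1b: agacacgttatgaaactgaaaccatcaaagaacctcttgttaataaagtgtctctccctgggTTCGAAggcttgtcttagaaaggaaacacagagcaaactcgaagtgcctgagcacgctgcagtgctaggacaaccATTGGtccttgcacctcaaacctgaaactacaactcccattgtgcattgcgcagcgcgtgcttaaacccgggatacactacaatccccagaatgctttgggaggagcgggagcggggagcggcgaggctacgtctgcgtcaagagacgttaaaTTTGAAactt
Racgap1: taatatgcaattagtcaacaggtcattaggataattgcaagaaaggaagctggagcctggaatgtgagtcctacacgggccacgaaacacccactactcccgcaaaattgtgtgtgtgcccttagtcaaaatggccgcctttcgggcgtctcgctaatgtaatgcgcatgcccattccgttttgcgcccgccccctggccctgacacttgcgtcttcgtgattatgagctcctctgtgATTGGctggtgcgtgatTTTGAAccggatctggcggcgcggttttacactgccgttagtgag
Anln: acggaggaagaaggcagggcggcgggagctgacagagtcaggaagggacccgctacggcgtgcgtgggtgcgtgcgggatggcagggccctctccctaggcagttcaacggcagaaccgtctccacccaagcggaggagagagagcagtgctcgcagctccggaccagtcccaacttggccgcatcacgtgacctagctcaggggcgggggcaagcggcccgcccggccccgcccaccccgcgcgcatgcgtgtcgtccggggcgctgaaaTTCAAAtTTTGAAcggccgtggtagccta
Plk1 and Racgap1 show the paired arrangement, with the box beginning 14 bases before the start in Plk1 and 12 in Racgap1, where it is in reverse orientation. Counting the first transcribed base as 1, the CHR begins at base 31 in Plk1 and at base 6 in Racgap1. Ccnb1 has 2 CCAAT boxes, beginning 99 and 67 bases before the start, and no CHR letters in the window. Bub1b has 1 CCAAT box in reverse orientation and 2 CHRs, of which 1 begins at base 41 by the same count. Anln has 2 adjoining CHRs after the start and no CCAAT letters.

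**Figure D1:**
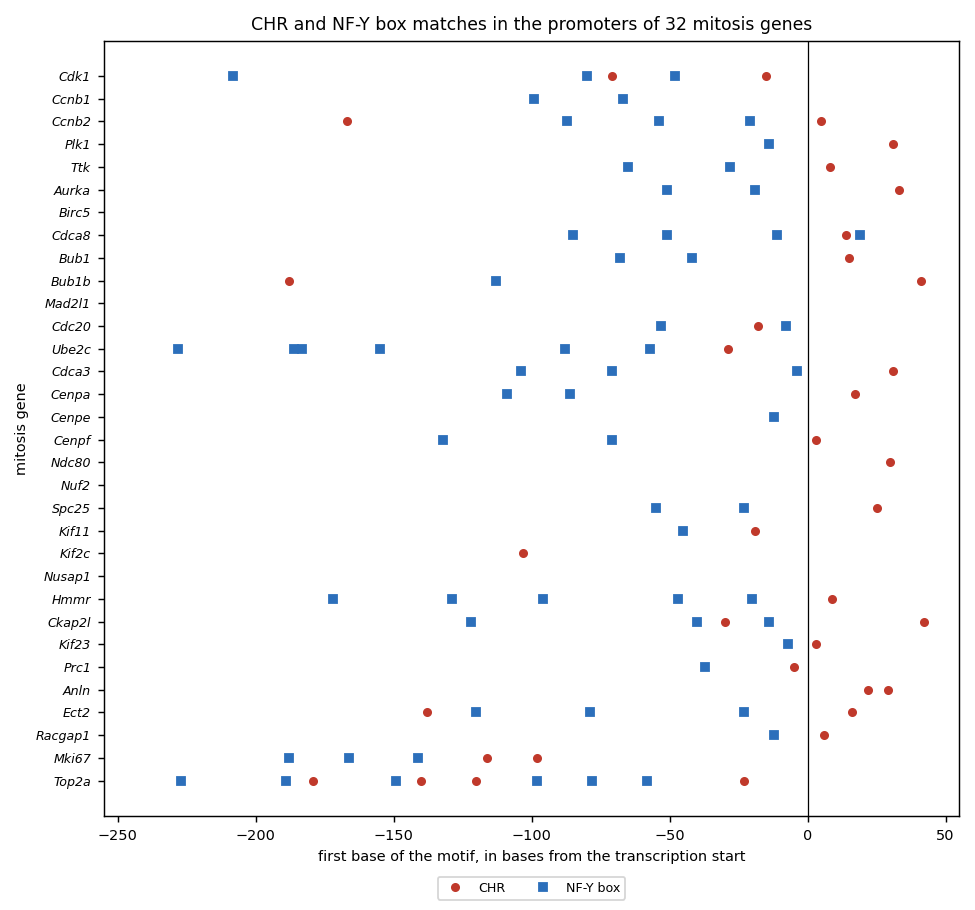
Position of CHR (red circles) and NF-Y box (blue squares) letters in the promoters of the 32 matched mitosis genes, in bases from the transcription start (vertical line). CHR letters lie near the start in most genes, with CCAAT letters mostly upstream of them; Birc5, Mad2l1, Nuf2 and Nusap1 have no mark.

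Total counts per library ran from 19230000 to 34015000, and the fewest counts of any of the 37 genes in any library was 50. All 12 markers of alveolar macrophages were detected in every group, with a summed level of 36000 to 42700 CPM in the knockouts, against 25500 to 32800 CPM in the controls. Chil3 alone had 14900 to 31400 CPM, most of each sum. In the Vhl/Hif2a knockout 4 of the 12 were called higher and 2, Siglecf and Krt79, lower (7.68% and 7.01% of all tested genes). In the Vhl/Hif1a knockout Siglecf alone was called, and it was lower (1.42% of all tested genes). The triple knockout had Itgax alone called, and it was higher (0.0388% of all tested genes were called). The 6 neutrophil markers summed to 46.9 to 54 CPM in the Vhl/Hif1a knockout, against 79 to 88.1 CPM in its control, and to 69.6 to 81.5 CPM in the triple knockout, against 48.3 to 67.8 CPM in its control. In the Vhl/Hif2a cross these sums overlapped, at 94.8 to 112 CPM in the knockout, against 58.1 to 111 CPM in the control. Mmp8 was the largest part of each sum, and single neutrophil markers went both ways. In the Vhl/Hif1a knockout S100a8 was called higher (log2 fold change 1.16 ± 0.19), and Cxcr2 (-1.45 ± 0.16) and Mmp8 (-0.8 ± 0.21) lower. In the Vhl/Hif2a knockout S100a8 was called higher (1.63 ± 0.19) and Cxcr2 lower (-1.79 ± 0.16). The 6 epithelial markers summed to 156 to 555 CPM over all libraries, and those of endothelium and fibroblasts to 0.23 to 20.6 CPM, the highest in a Vhl/Hif1a control. Most of the epithelial sum was Epcam (24.7 to 393 CPM) and Cdh1 (104 to 211 CPM). Sftpc, Sftpb and Krt8 had 0.743 CPM or less. Scgb1a1 had 1.27 to 8.18 CPM in the double crosses and 6.45 to 13.4 CPM in the triple cross. By edgeR, Epcam was lower in the Vhl/Hif1a knockout (-1 ± 0.17) and Cdh1 higher in the Vhl/Hif2a knockout (0.54 ± 0.11). Epcam was also higher in the Vhl/Hif2a control than in the Vhl/Hif1a control (2.39 ± 0.17). Summed markers of T and NK cells, of B cells and of erythroid cells were 3.43 CPM or less in every library, and Ly6g, Ncr1 and Pax5 were at 0 in all. The 6 dendritic cell markers summed to 5.5 to 6.82 CPM in the Vhl/Hif2a knockout, against 12.4 to 28 CPM in its control, and the 5 monocyte markers to 21.1 to 22 CPM, against 10 to 16 CPM. Their part in the results below was not tested. All 6 libraries of the triple cross had Y-linked Ddx3y at 47.3 to 110 CPM and Xist at 0.377 CPM or less, while all 12 libraries of the double crosses had Xist at 291 CPM or more and Ddx3y at 0.0881 CPM or less. A difference between a double cross and the triple cross therefore cannot be told apart from a difference between the sexes.

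In the libraries labelled Vhl/Hif2a knockout, in which Hif1a RNA was lower and Epas1 RNA higher, 29 of the 37 mitosis genes fell and none rose, where 7.01% of all tested genes were called lower and 7.68% higher. The median log2 fold change of the 37 genes was -0.55, and that of all tested genes was 0.003. In 36 of the 37 genes every knockout library lay below every control library, which held for 16.6% of all tested genes. In the libraries labelled Vhl/Hif1a knockout 6 genes fell and none rose (1.42% of all tested genes were called lower and 2.22% higher), the median was -0.33, against -0.001 over all tested genes, and 36 of the 37 genes had a negative log2 fold change, against 50.1% of all tested genes. At an unadjusted p under 0.05, 21 of the 37 genes were lower, against 6.3% of all tested genes. Every knockout library lay below every control library for 24 genes, against 12% of all tested genes. The triple knockout had no called member (0.0388% of all tested genes were called), and its median was 0.11, against -0.01 over all tested genes. At an unadjusted p under 0.05 in edgeR, 2 genes were lower and 1 higher there (8.08% and 3.43% of all tested genes), and DESeq2 called none. Its knockout libraries were all below the controls for Plk1 and Aurkb and all above them for Nusap1, against 8.34% and 6.97% of all tested genes. In bulk RNA, fewer cells in the cycle and less of these transcripts in each such cell cannot be told apart.

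Summed over the 37 genes, the level was 1103 ± 63.8 CPM in the Vhl/Hif1a knockout and 1350 ± 110 CPM in its control (SD, n = 3 each). The Vhl/Hif2a knockout had 1089 ± 12.3 CPM and its control 1575 ± 29.8 CPM. In the triple cross the sum was 1531 ± 72.9 CPM in the knockout and 1384 ± 199 CPM in the control. The sums of the double knockouts lay below every control sum of their own cross, while the double knockouts themselves overlapped, at 1067, 1177 and 1065 CPM in the Vhl/Hif1a knockout and 1081, 1083 and 1103 CPM in the Vhl/Hif2a knockout. The triple knockout sums of 1607, 1462 and 1525 CPM overlapped the control sums of 1480, 1155 and 1517 CPM. The lowest of these sums belongs to triple control 2, a library that stands apart and is described below.

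**Figure D2:**
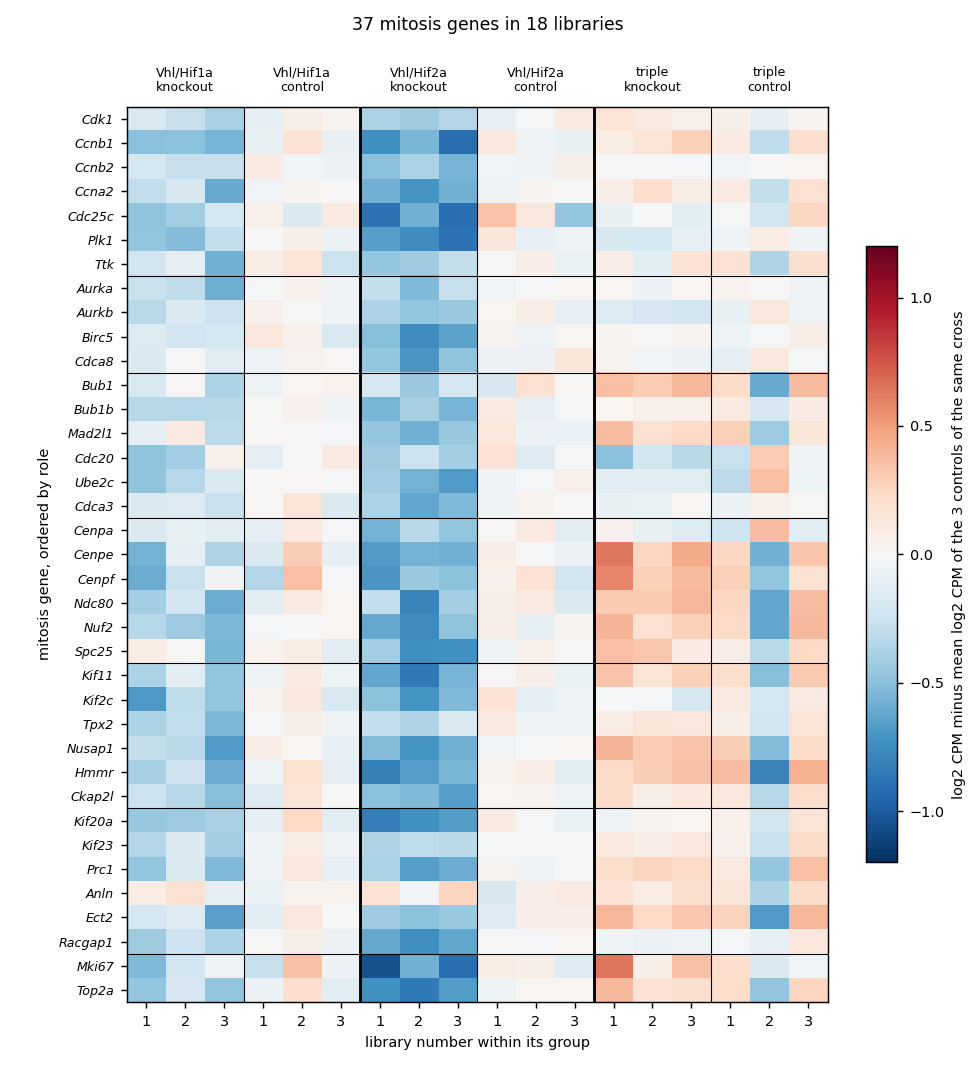
Level of each mitosis gene (one row per gene, ordered by role) in each of the 18 libraries, as log2 CPM minus the mean of the 3 controls of the same cross; knockouts stand left of their controls. The Vhl/Hif2a knockout columns are blue for nearly all genes, the Vhl/Hif1a knockout columns are paler blue, and triple control 2 is blue for many of the longer genes.

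Per kilobase of exon, the level averaged over all libraries was highest for the checkpoint gene Bub1b at 23.8 RPKM (CPM per kilobase of exon), followed by Mki67 at 18, Ccnb2 at 16, Top2a at 14.4 and Anln at 11.4 RPKM. The lowest were Cenpf at 1.73, Ttk at 1.39 and the phosphatase gene Cdc25c at 0.553 RPKM.

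Among the kinases and cyclins, 6 of 7 fell in the Vhl/Hif2a knockout and 2 of 7 in the Vhl/Hif1a knockout. Ccnb1 (chr13:100778650-100786570, minus strand in GENCODE M21 on GRCm38) encodes cyclin B1, the partner of Cdk1 at the entry into mitosis. Ccnb1 had 16.4, 18.7 and 14.6 CPM in the Vhl/Hif2a knockout, against 30, 26.5 and 25.7 CPM in its control. Its level was 17.6, 17.7 and 16.9 CPM in the Vhl/Hif1a knockout, against 23.3, 28.1 and 23.4 CPM in its control. Triple cross libraries had 27.9, 29.3 and 32.1 CPM in the triple knockout, against 28.1, 21.3 and 30.3 CPM in its control. The double knockouts lay below all of their controls, by clear gaps, and the triple groups overlapped. The log2 fold change (± SE) was -0.72 ± 0.13 (adjusted p = 0.00075) in the Vhl/Hif2a knockout, -0.52 ± 0.13 (adjusted p = 0.029) in the Vhl/Hif1a knockout and 0.16 ± 0.12 (adjusted p = 0.5) in the triple knockout.

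Plk1 (chr7:122159439-122169873, plus strand) encodes Polo-like kinase 1, which acts in mitotic entry, centrosome maturation and cytokinesis. Plk1 had 12.6, 11.9 and 10.8 CPM in the Vhl/Hif2a knockout, against 22.1, 18.6 and 19.3 CPM in its control. It had 12.6, 12.2 and 14.2 CPM in the Vhl/Hif1a knockout, against 17.5, 18.3 and 16.6 CPM in its control. In the triple cross Plk1 had 18.4, 18.1 and 19.6 CPM in the triple knockout, against 20.4, 22.3 and 20.4 CPM in its control. Knockout libraries lay below control libraries in all 3 crosses, with the narrowest gap in the triple cross. On the log2 scale the change was -0.76 ± 0.1 (adjusted p = 2.5e-05) in the Vhl/Hif2a knockout, -0.42 ± 0.1 (adjusted p = 0.017) in the Vhl/Hif1a knockout and -0.17 ± 0.09 (adjusted p = 0.43) in the triple knockout.

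Cdk1 (chr10:69335146-69352938, minus strand) encodes the mitotic kinase itself. Cdk1 had 20.5, 19.8 and 20.9 CPM in the Vhl/Hif2a knockout, against 25, 26.2 and 29 CPM in its control. It had 20.7, 19.4 and 17.9 CPM in the Vhl/Hif1a knockout, against 21.8, 24.7 and 24 CPM in its control. Triple cross values of Cdk1 were 29.9, 28.8 and 27.9 CPM in the triple knockout, against 28.1, 24.8 and 27.3 CPM in its control. Both double knockouts were below all their controls, and the call was made in the Vhl/Hif2a knockout, with a log2 fold change of -0.39 ± 0.08 (adjusted p = 0.0041), while the value in the Vhl/Hif1a knockout was -0.28 ± 0.09 (adjusted p = 0.097). Ccna2 encodes cyclin A2, which acts in S phase and G2. Ccna2 had 34.1, 31.1 and 34.1 CPM in the Vhl/Hif2a knockout, against 49.4, 52 and 51.1 CPM in its control. It had 38, 40.9 and 30.7 CPM in the Vhl/Hif1a knockout, against 45.7, 47.8 and 46.5 CPM in its control. Across the triple cross Ccna2 had 48.6, 52.8 and 49 CPM in the triple knockout, against 49.3, 37.7 and 52.3 CPM in its control. Both double knockouts were below all their controls, with a log2 fold change of -0.62 ± 0.11 (adjusted p = 0.001) in the Vhl/Hif2a knockout, which was called, and in the Vhl/Hif1a knockout -0.35 ± 0.11 (adjusted p = 0.12).

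Ccnb2, for cyclin B2, had 19.5, 21.2 and 18.7 CPM in the Vhl/Hif2a knockout, against 26.9, 26.8 and 29 CPM in its control. It had 21, 20.1 and 20 CPM in the Vhl/Hif1a knockout, against 26, 23.8 and 23.1 CPM in its control. Ccnb2 in the triple cross had 27.5, 27.7 and 27.1 CPM in the triple knockout, against 27, 27.6 and 28.1 CPM in its control. Both double knockouts were below all their controls, the triple groups were nearly level, and the Vhl/Hif2a knockout had the call at -0.48 ± 0.07 (adjusted p = 0.00023). Cdc25c, the phosphatase that activates Cdk1, was the scarcest gene of the set and had 1.75, 2.17 and 1.73 CPM in the Vhl/Hif2a knockout, against 4.09, 3.55 and 2.32 CPM in its control, with a log2 fold change of -0.81 ± 0.21 (adjusted p = 0.013). Ttk, for the checkpoint kinase Mps1, did not pass the test in any knockout, with a log2 fold change of -0.39 ± 0.17 (adjusted p = 0.13) in the Vhl/Hif2a knockout.

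Of the chromosomal passenger complex, which corrects faulty attachments of chromosomes to the spindle, and Aurora A, all 4 genes fell in the Vhl/Hif2a knockout and none was called in the Vhl/Hif1a knockout. Birc5 encodes survivin, a subunit of the complex. Birc5 had 14.4, 12.3 and 13.2 CPM in the Vhl/Hif2a knockout, against 21, 19.8 and 20.9 CPM in its control. It had 15.5, 14.9 and 15.1 CPM in the Vhl/Hif1a knockout, against 19.2, 18 and 15.3 CPM in its control. Birc5 values in the triple cross were 20.3, 19.9 and 20.3 CPM in the triple knockout, against 19, 19.6 and 20.9 CPM in its control. Only the Vhl/Hif2a groups of these 3 pairs were apart. The log2 fold changes were -0.63 ± 0.09 (adjusted p = 0.00012) in the Vhl/Hif2a knockout and -0.2 ± 0.09 (adjusted p = 0.34) in the Vhl/Hif1a knockout.

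Aurkb encodes Aurora B, the kinase of the complex. Aurkb had 18.4, 17.1 and 17.5 CPM in the Vhl/Hif2a knockout, against 24.2, 25.1 and 22.2 CPM in its control. It had 18.3, 20.3 and 19.3 CPM in the Vhl/Hif1a knockout, against 23.7, 22.8 and 22.2 CPM in its control. Aurkb in the triple cross had 22.9, 22.2 and 21.8 CPM in the triple knockout, against 24.1, 28.1 and 24.8 CPM in its control. Knockouts lay below controls in all 3 crosses, and the log2 fold change was -0.43 ± 0.08 (adjusted p = 0.0013) in the Vhl/Hif2a knockout, -0.25 ± 0.08 (adjusted p = 0.13) in the Vhl/Hif1a knockout and -0.2 ± 0.08 (adjusted p = 0.43) in the triple knockout. Cdca8, for borealin, had 14.5, 12.3 and 14.3 CPM in the Vhl/Hif2a knockout, against 19, 19 and 22.2 CPM in its control. It had 15.5, 17.3 and 16.1 CPM in the Vhl/Hif1a knockout, against 16.8, 18.1 and 17.7 CPM in its control. Cdca8 was measured at 19.6, 18.7 and 18.3 CPM in the triple knockout, against 17.7, 20.9 and 19 CPM in its control. The Vhl/Hif2a groups were apart and the others overlapped, and the log2 fold changes of Cdca8 were -0.55 ± 0.1 (adjusted p = 0.00076) in the Vhl/Hif2a knockout and -0.1 ± 0.1 (adjusted p = 0.77) in the Vhl/Hif1a knockout. Aurka, for the spindle pole kinase Aurora A, gave -0.36 ± 0.1 (adjusted p = 0.025) in the Vhl/Hif2a knockout and -0.38 ± 0.1 (adjusted p = 0.051) in the Vhl/Hif1a knockout, values of like size of which the first passed the threshold.

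Of the genes of the spindle checkpoint and the anaphase-promoting complex, 4 of 6 fell in the Vhl/Hif2a knockout and 1 in the Vhl/Hif1a knockout. Bub1b (chr2:118598211-118641591, plus strand) encodes BubR1, a part of the complex that holds back anaphase. Bub1b had 75.3, 83.8 and 74.9 CPM in the Vhl/Hif2a knockout, against 119, 103 and 109 CPM in its control. It had 81.9, 81.2 and 82.1 CPM in the Vhl/Hif1a knockout, against 103, 107 and 99.5 CPM in its control. The triple cross had Bub1b at 118, 121 and 121 CPM in the triple knockout, against 125, 101 and 124 CPM in its control. Vhl/Hif1a knockout libraries lay within 1 CPM of each other and below all controls, and so did the more spread Vhl/Hif2a knockout libraries below theirs. The fitted log2 fold change was -0.5 ± 0.08 (adjusted p = 0.00047) in the Vhl/Hif2a knockout, -0.34 ± 0.08 (adjusted p = 0.03) in the Vhl/Hif1a knockout and 0.04 ± 0.08 (adjusted p = 0.82) in the triple knockout.

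Mad2l1 encodes Mad2, which inhibits Cdc20 until chromosomes are attached. Mad2l1 had 21.9, 20.3 and 22.1 CPM in the Vhl/Hif2a knockout, against 33.3, 28.8 and 28.9 CPM in its control. It had 23.5, 27.3 and 20.3 CPM in the Vhl/Hif1a knockout, against 25.5, 25.5 and 24.8 CPM in its control. Mad2l1 in the triple cross had 34.3, 30.1 and 31 CPM in the triple knockout, against 32.4, 19.6 and 29.3 CPM in its control. The Vhl/Hif2a groups were apart, with a log2 fold change of -0.5 ± 0.14 (adjusted p = 0.027), and the Vhl/Hif1a groups overlapped, with -0.09 ± 0.14 (adjusted p = 0.87). Ube2c, for the ubiquitin-conjugating enzyme of the anaphase-promoting complex, had 15.7, 14.1 and 13.1 CPM in the Vhl/Hif2a knockout, against 20.3, 20.7 and 21.9 CPM in its control. It had 13.5, 14.9 and 16.8 CPM in the Vhl/Hif1a knockout, against 18.9, 19.1 and 18.7 CPM in its control. Ube2c stood at 20, 19.9 and 19.7 CPM in the triple knockout, against 17.6, 28.1 and 21.1 CPM in its control. Triple control 2 was the highest of all 18 libraries for Ube2c, and the log2 fold change was -0.56 ± 0.13 (adjusted p = 0.0083) in the Vhl/Hif2a knockout and -0.33 ± 0.13 (adjusted p = 0.26) in the Vhl/Hif1a knockout.

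Cdc20 encodes the activator of the anaphase-promoting complex. Cdc20 had 13, 14.7 and 13.2 CPM in the Vhl/Hif2a knockout, against 19.8, 15.7 and 17.3 CPM in its control. It had 11.8, 12.3 and 17.2 CPM in the Vhl/Hif1a knockout, against 15.3, 16.4 and 17.7 CPM in its control. Cdc20 in the triple cross had 16.4, 20 and 18.4 CPM in the triple knockout, against 19.3, 28.8 and 22.6 CPM in its control. Knockout levels were lower on average in all 3 crosses, and triple control 2 was again the highest library. In edgeR the log2 fold change was -0.36 ± 0.16 (adjusted p = 0.14) in the Vhl/Hif2a knockout, -0.26 ± 0.16 (adjusted p = 0.55) in the Vhl/Hif1a knockout and -0.37 ± 0.15 (adjusted p = 0.43) in the triple knockout, the lowest value of the set there, and none passed the test. Cdca3, which marks the Wee1 kinase for degradation at the entry into mitosis, had 17.7, 14.9 and 15.9 CPM in the Vhl/Hif2a knockout, against 22.2, 23.6 and 23.1 CPM in its control. It had 17.7, 17.9 and 16.5 CPM in the Vhl/Hif1a knockout, against 20.1, 22.2 and 17.7 CPM in its control. Cdca3 was at 22.2, 22.4 and 24.1 CPM in the triple knockout, against 22.5, 24.7 and 23.9 CPM in its control. The Vhl/Hif2a groups were apart, with a log2 fold change of -0.51 ± 0.09 (adjusted p = 0.001). Bub1, for the checkpoint kinase, did not pass the test in any knockout and stood at -0.28 ± 0.18 (adjusted p = 0.35) in the Vhl/Hif2a knockout.

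At the kinetochore, where chromosomes meet spindle fibres, 4 of 6 genes fell in the Vhl/Hif2a knockout and none was called in the Vhl/Hif1a knockout. Cenpe encodes a kinesin that moves chromosomes to the spindle equator. Cenpe had 25.4, 27.5 and 27.3 CPM in the Vhl/Hif2a knockout, against 43, 40.6 and 38.8 CPM in its control. It had 21.3, 29.4 and 24.6 CPM in the Vhl/Hif1a knockout, against 28, 38.8 and 29.2 CPM in its control. In the triple cross Cenpe had 45.4, 35 and 39.7 CPM in the triple knockout, against 34.6, 19.6 and 36.7 CPM in its control. Its log2 fold change was -0.61 ± 0.19 (adjusted p = 0.036) in the Vhl/Hif2a knockout, -0.35 ± 0.19 (adjusted p = 0.48) in the Vhl/Hif1a knockout and 0.4 ± 0.19 (adjusted p = 0.43) in the triple knockout, the highest value of the set there. Triple control 2, at 19.6 CPM, was far below the other triple controls.

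Cenpf, for a large protein of the outer kinetochore, had 20.9, 24.9 and 24.2 CPM in the Vhl/Hif2a knockout, against 35.2, 38.3 and 29 CPM in its control. It had 16.4, 20.7 and 24.2 CPM in the Vhl/Hif1a knockout, against 19.5, 32 and 24.6 CPM in its control. Cenpf in the triple cross had 35.9, 29 and 31 CPM in the triple knockout, against 29.1, 17.2 and 27.1 CPM in its control. The Vhl/Hif2a groups did not overlap, yet their difference of -0.55 ± 0.2 (adjusted p = 0.075) missed the threshold, and the Vhl/Hif1a groups overlapped, with -0.31 ± 0.2 (adjusted p = 0.6). Nuf2 and Spc25 belong to the Ndc80 complex, which grips the ends of spindle fibres. Nuf2 had 13.6, 12.4 and 14.9 CPM in the Vhl/Hif2a knockout, against 22.1, 19.3 and 21.3 CPM in its control. It had 15.2, 14.3 and 13.3 CPM in the Vhl/Hif1a knockout, against 19.1, 19.2 and 19.6 CPM in its control. Nuf2 was found at 23, 19.6 and 21.1 CPM in the triple knockout, against 20.3, 11.2 and 22.7 CPM in its control. Both double knockouts were below all their controls for Nuf2, at -0.62 ± 0.17 (adjusted p = 0.025) in the Vhl/Hif2a knockout and -0.44 ± 0.18 (adjusted p = 0.25) in the Vhl/Hif1a knockout.

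Spc25 had 11.3, 9.1 and 9.15 CPM in the Vhl/Hif2a knockout, against 14.5, 15.8 and 15.1 CPM in its control. It had 14.4, 13.6 and 9.23 CPM in the Vhl/Hif1a knockout, against 13.9, 14.4 and 12.3 CPM in its control. Spc25 in the triple cross had 18, 17.5 and 15 CPM in the triple knockout, against 14.8, 11.2 and 16.5 CPM in its control. The Vhl/Hif2a groups were apart, at -0.62 ± 0.16 (adjusted p = 0.015), and the Vhl/Hif1a groups overlapped, at -0.12 ± 0.16 (adjusted p = 0.85). Ndc80 itself missed the threshold in the Vhl/Hif2a knockout at -0.49 ± 0.19 (adjusted p = 0.1), and Cenpa, for the histone variant that marks the centromere, passed it at -0.46 ± 0.13 (adjusted p = 0.025).

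Among the motors and other proteins of the spindle, 5 of 6 genes fell in the Vhl/Hif2a knockout and 1, Tpx2, in the Vhl/Hif1a knockout; in both crosses all 6 had every knockout library below every control library. Kif11 encodes the kinesin Eg5, which pushes the spindle poles apart. Kif11 had 31.9, 27.4 and 33.4 CPM in the Vhl/Hif2a knockout, against 49.6, 51.5 and 46.6 CPM in its control. It had 32.9, 38.8 and 30.9 CPM in the Vhl/Hif1a knockout, against 41.4, 45.8 and 41.1 CPM in its control. Kif11 in the triple cross had 50.9, 45.2 and 49 CPM in the triple knockout, against 46, 28.3 and 50.2 CPM in its control. Apart from triple control 2, at 28.3 CPM, the triple libraries lay close together. On the log2 scale the change was -0.67 ± 0.15 (adjusted p = 0.0064) in the Vhl/Hif2a knockout and -0.32 ± 0.15 (adjusted p = 0.39) in the Vhl/Hif1a knockout.

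Nusap1, which bundles spindle fibres, had 24.6, 21.5 and 23.8 CPM in the Vhl/Hif2a knockout, against 34.7, 35.5 and 36 CPM in its control. It had 25.9, 25.3 and 19.7 CPM in the Vhl/Hif1a knockout, against 33.4, 32.2 and 29.5 CPM in its control. Nusap1 in the triple cross had 38.5, 36 and 37 CPM in the triple knockout, against 35.8, 20.3 and 33.9 CPM in its control. Its triple knockout libraries were above all controls, the 1 gene of the set of which this was true, at 0.31 ± 0.15 (adjusted p = 0.43), and it stood at -0.6 ± 0.16 (adjusted p = 0.014) in the Vhl/Hif2a knockout. Ckap2l, a protein of the spindle pole, had 19.6, 19.2 and 17.5 CPM in the Vhl/Hif2a knockout, against 28.2, 28.3 and 26.7 CPM in its control. It had 21.4, 20.2 and 17.9 CPM in the Vhl/Hif1a knockout, against 23, 28.5 and 25.4 CPM in its control. Ckap2l was measured at 30.7, 27.7 and 28.8 CPM in the triple knockout, against 28.9, 20.8 and 30.6 CPM in its control. Its log2 fold change was -0.56 ± 0.12 (adjusted p = 0.0046) in the Vhl/Hif2a knockout and -0.37 ± 0.12 (adjusted p = 0.14) in the Vhl/Hif1a knockout.

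Tpx2, which activates Aurora A on the spindle, had 33.8, 35.7 and 30.2 CPM in the Vhl/Hif1a knockout, against 43.4, 46 and 42.5 CPM in its control. It had 37.8, 36.1 and 41.1 CPM in the Vhl/Hif2a knockout, against 49.9, 45 and 44.6 CPM in its control. Tpx2 in the triple cross had 47.9, 49.8 and 49.5 CPM in the triple knockout, against 47.5, 38.4 and 50.5 CPM in its control. Both double knockouts were below all their controls, with -0.4 ± 0.1 (adjusted p = 0.026) in the Vhl/Hif1a knockout and -0.28 ± 0.1 (adjusted p = 0.065) in the Vhl/Hif2a knockout; the difference between these effects was 0.12 ± 0.14 (adjusted p = 0.93) and was not called. Kif2c, a kinesin that dismantles spindle fibres, was called at -0.58 ± 0.13 (adjusted p = 0.0057) in the Vhl/Hif2a knockout and stood at -0.48 ± 0.13 (adjusted p = 0.052) in the Vhl/Hif1a knockout. Hmmr, a spindle protein and hyaluronan receptor, was called in the Vhl/Hif2a knockout alone, at -0.67 ± 0.21 (adjusted p = 0.042).

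Of the 6 genes of cytokinesis, the division of the cell body, 4 fell in the Vhl/Hif2a knockout and 2 of these also in the Vhl/Hif1a knockout. Racgap1 (chr15:99620496-99651656, minus strand) encodes a subunit of centralspindlin, which positions the cleavage furrow. Racgap1 had 34.8, 31.9 and 34.4 CPM in the Vhl/Hif2a knockout, against 53.4, 52.2 and 53.9 CPM in its control. It had 35.2, 39.9 and 36.3 CPM in the Vhl/Hif1a knockout, against 47.4, 49.6 and 45.2 CPM in its control. Racgap1 in the triple cross had 48.6, 47.9 and 48.3 CPM in the triple knockout, against 49.5, 47.2 and 54.9 CPM in its control. The gaps between the double knockouts and their controls were wide against the spread within groups. The fitted log2 fold change was -0.66 ± 0.07 (adjusted p = 8.5e-06) in the Vhl/Hif2a knockout, -0.35 ± 0.07 (adjusted p = 0.01) in the Vhl/Hif1a knockout and -0.07 ± 0.07 (adjusted p = 0.64) in the triple knockout.

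Kif20a encodes a kinesin of the spindle midzone. Kif20a had 18.1, 19.5 and 20.3 CPM in the Vhl/Hif2a knockout, against 34.6, 31.8 and 30.4 CPM in its control. It had 20.9, 21.2 and 21.9 CPM in the Vhl/Hif1a knockout, against 26.5, 33.8 and 26.1 CPM in its control. Triple cross libraries had Kif20a at 32, 34.1 and 33.5 CPM in the triple knockout, against 34.4, 28.3 and 37.1 CPM in its control. Both double knockouts were below all their controls, with a log2 fold change of -0.74 ± 0.11 (adjusted p = 0.00015) in the Vhl/Hif2a knockout and -0.43 ± 0.11 (adjusted p = 0.034) in the Vhl/Hif1a knockout, and the triple value was 0 ± 0.11 (adjusted p = 0.99). Prc1, which crosslinks midzone fibres, had 39.3, 32.4 and 34 CPM in the Vhl/Hif2a knockout, against 52.6, 49.9 and 51.4 CPM in its control. It had 33, 40.7 and 31.8 CPM in the Vhl/Hif1a knockout, against 44.6, 50.3 and 42.9 CPM in its control. Prc1 was found at 48.3, 50.2 and 49.1 CPM in the triple knockout, against 45.3, 30 and 53.6 CPM in its control. The double knockouts were below all their controls, at -0.54 ± 0.15 (adjusted p = 0.023) in the Vhl/Hif2a knockout and -0.38 ± 0.15 (adjusted p = 0.25) in the Vhl/Hif1a knockout. Kif23, the motor partner of Racgap1, was called in the Vhl/Hif2a knockout at -0.33 ± 0.1 (adjusted p = 0.033), and Ect2, the exchange factor that activates RhoA at the furrow, was not, at -0.46 ± 0.19 (adjusted p = 0.13).

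Anln (chr9:22332012-22389188, minus strand) stood apart from the rest of the set. It encodes anillin, a scaffold of the contractile ring that also binds the cortical cytoskeleton. Anln had 121, 105 and 129 CPM in the Vhl/Hif2a knockout, against 94.3, 114 and 116 CPM in its control. It had 113, 120 and 97.4 CPM in the Vhl/Hif1a knockout, against 100, 109 and 109 CPM in its control. Anln in the triple cross had 93.2, 87.8 and 94.4 CPM in the triple knockout, against 91.3, 64 and 96 CPM in its control. The groups overlapped in all 3 crosses, and Anln was the single gene of the 37 with a positive log2 fold change in the Vhl/Hif2a knockout, 0.13 ± 0.13 (adjusted p = 0.6), and in the Vhl/Hif1a knockout, 0.05 ± 0.13 (adjusted p = 0.93).

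Mki67 (chr7:135689784-135716361, minus strand) encodes Ki-67, the coat of mitotic chromosomes used as a marker of cells in the cycle, and had the lowest log2 fold change of the set in the Vhl/Hif2a knockout. Mki67 had 120, 166 and 133 CPM in the Vhl/Hif2a knockout, against 264, 260 and 223 CPM in its control. It had 114, 140 and 157 CPM in the Vhl/Hif1a knockout, against 136, 209 and 156 CPM in its control. Mki67 in the triple cross had 268, 181 and 220 CPM in the triple knockout, against 198, 153 and 168 CPM in its control. The Vhl/Hif2a groups were far apart, the Vhl/Hif1a groups overlapped, and so did the triple groups. In edgeR the log2 fold change was -0.84 ± 0.18 (adjusted p = 0.0035) in the Vhl/Hif2a knockout, -0.28 ± 0.18 (adjusted p = 0.58) in the Vhl/Hif1a knockout and 0.37 ± 0.18 (adjusted p = 0.43) in the triple knockout. Top2a encodes the topoisomerase that untangles sister chromatids. Top2a had 98.2, 90.2 and 102 CPM in the Vhl/Hif2a knockout, against 157, 165 and 165 CPM in its control. It had 96.2, 116 and 95.8 CPM in the Vhl/Hif1a knockout, against 127, 153 and 122 CPM in its control. Top2a in the triple cross had 166, 143 and 145 CPM in the triple knockout, against 147, 91.8 and 152 CPM in its control. Both double knockouts lay below all their controls, with -0.75 ± 0.15 (adjusted p = 0.0021) in the Vhl/Hif2a knockout and -0.38 ± 0.15 (adjusted p = 0.23) in the Vhl/Hif1a knockout.

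**Figure D3:**
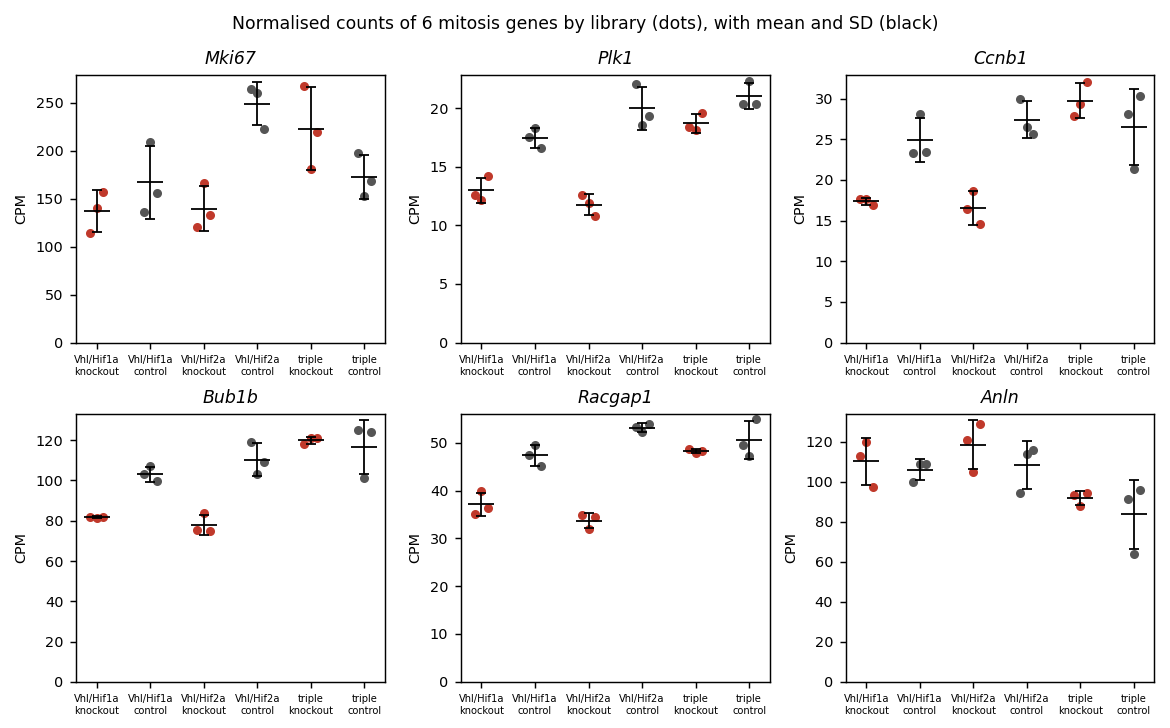
Normalised counts (CPM) of 6 mitosis genes in each library (dots; red for knockout, grey for control), with the mean and SD of each group of 3 in black; the axes start at 0. Plk1, Ccnb1, Bub1b and Racgap1 are lower in both double knockouts, Mki67 falls in the Vhl/Hif2a knockout, and Anln overlaps between groups.

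In all, 5 genes were lower in both double knockouts (Ccnb1, Plk1, Bub1b, Kif20a and Racgap1), 24 were called in the Vhl/Hif2a knockout alone, Tpx2 in the Vhl/Hif1a knockout alone, and 7 in neither (Ttk, Bub1, Cdc20, Cenpf, Ndc80, Anln and Ect2). The calls of the Vhl/Hif1a knockout rest on little margin. With 1 library left out, 0 genes were called without knockout 1, 3 without knockout 2 and 1 without knockout 3, and 3 without control 1, 0 without control 2 and 4 without control 3. None of the 6 genes was called in every such fit. In the Vhl/Hif2a knockout 20 to 23 genes were called when 1 library was left out, and 18 of the 29 were called in every such fit. Cenpe, Hmmr and Kif23 were called in none of these 6 fits, Prc1 in 1, Cdc25c, Aurka, Mad2l1, Cenpa and Nuf2 in 2, Spc25 in 3 and Nusap1 in 5.

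**Figure D4:**
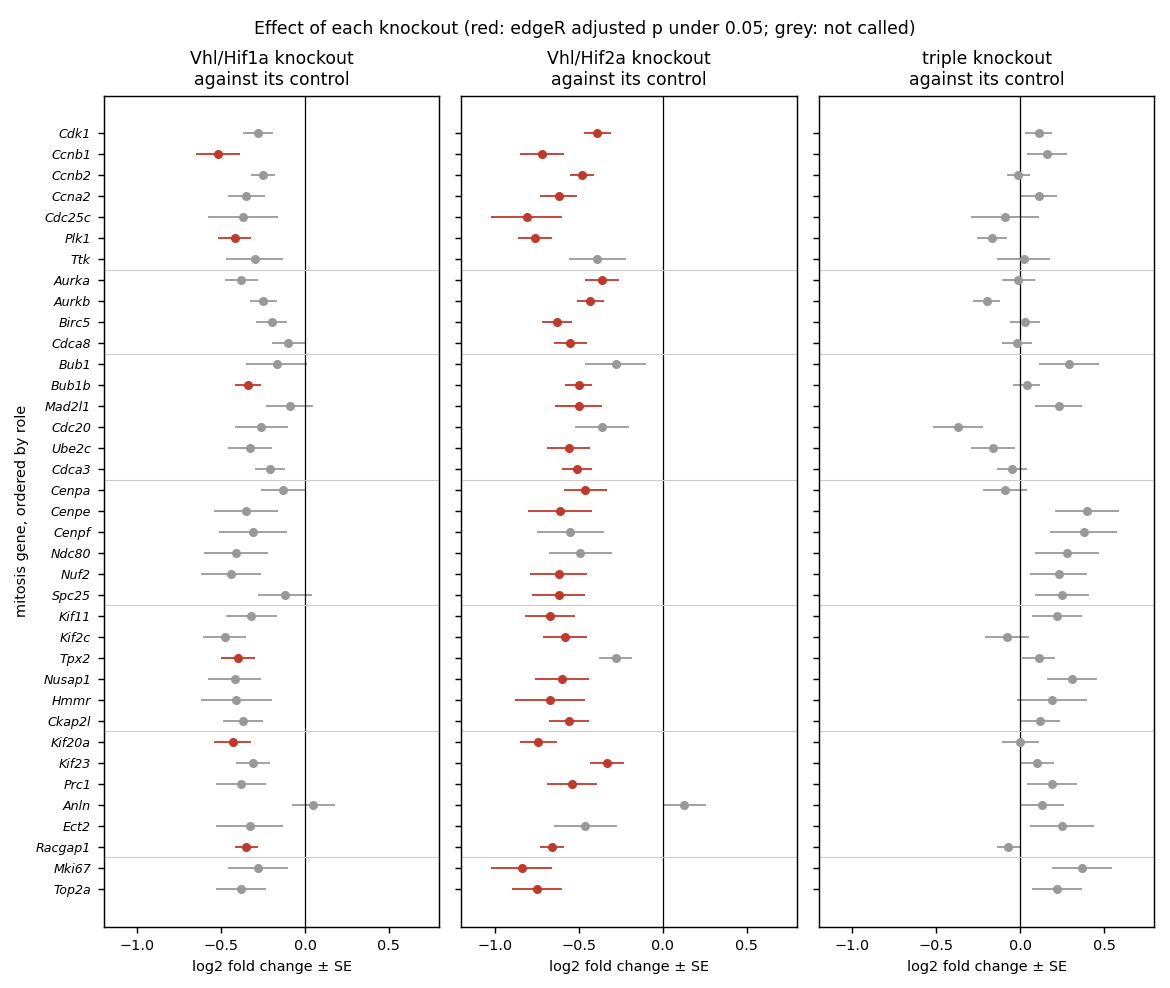
Log2 fold change (± SE) of each mitosis gene in each knockout against its own control, with genes ordered by role and calls at an adjusted p under 0.05 in red. Nearly all points lie left of 0 in the double knockouts, with 6 called in the Vhl/Hif1a knockout and 29 in the Vhl/Hif2a knockout, and points lie on both sides of 0 in the triple knockout, with none called.

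The difference between the effects in the libraries labelled Vhl/Hif2a and Vhl/Hif1a knockout, tested as an interaction, was called for none of the 37 genes (2.44% of all tested genes were called), by edgeR or by DESeq2. Its median was -0.22, and 8 genes had a lower effect in the Vhl/Hif2a knockout at an unadjusted p under 0.05 (4.95% of all tested genes). Mki67 had the lowest value of the 37, at -0.55 ± 0.25 (adjusted p = 0.44). The larger count of calls in the Vhl/Hif2a knockout is thus not shown to be a difference between the knockouts for any of the genes.

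Set against the triple knockout, the effect in the libraries labelled Vhl/Hif2a knockout was lower for 22 of the 37 genes and higher for none (3.08% of all tested genes were called lower and 4.91% higher), with a median difference of -0.65. The difference was -1.2 ± 0.25 (adjusted p = 0.0057) for Mki67, -1.01 ± 0.26 (adjusted p = 0.025) for Cenpe, -0.97 ± 0.21 (adjusted p = 0.0078) for Top2a and -0.94 ± 0.28 (adjusted p = 0.049) for Cenpf. Of the 5 genes lower in both double knockouts, it was -0.89 ± 0.18 (adjusted p = 0.0045) for Ccnb1, -0.74 ± 0.15 (adjusted p = 0.0061) for Kif20a, -0.6 ± 0.13 (adjusted p = 0.0098) for Plk1, -0.59 ± 0.1 (adjusted p = 0.0016) for Racgap1 and -0.54 ± 0.12 (adjusted p = 0.0082) for Bub1b. Of the 22, 21 were also lower in the Vhl/Hif2a knockout against its own control, and the other was Cenpf. Over the 37 genes the triple knockout effect varied with exonic length, with a Spearman correlation of 0.57. That correlation was 0.05 in the Vhl/Hif1a knockout and -0.08 in the Vhl/Hif2a knockout. Mki67, Cenpe, Top2a and Cenpf, which had the lowest differences, have 8620 to 15433 bases of exon. The cause of this pattern was not tested. For the Vhl/Hif1a knockout against the triple knockout the median difference was -0.40 and no gene was called (2.04% of all tested genes were called), although 21 were lower at an unadjusted p under 0.05 (6.52% of all tested genes), and DESeq2 called Ccnb1 and Tpx2. By Xist and Ddx3y the sex of the mice also differed between these crosses, and it cannot be told apart from the genotype here.

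The triple cross has a library that stands apart. In triple control 2, 27 of the 37 genes were below both other triple controls and 7 above both, with a median log2 ratio of -0.41 to them. The other 17 libraries had medians from -0.14 to 0.27 by the same measure. The deviation varied with gene length. Cenpe, with 8620 bases of exon, had 19.6 CPM there, against 34.6 and 36.7 CPM in the other triple controls, while Cdc20, with 1868 bases, had 28.8 CPM there, against 19.3 and 22.6 CPM. Not every gene followed its length. Cenpa, with 5860 bases, had 29.3 CPM there, against 19.3 and 20.7 CPM, and the shorter Bub1, with 4354 bases, had 13.4 CPM, against 23.7 and 26.5 CPM. Across the 37 genes the Spearman correlation of the deviation with exonic length was -0.52, and across 12882 tested genes it was -0.25; these are descriptions over genes of 1 library. In other libraries the first ran from -0.49 to 0.57 and the second from -0.27 to 0.27, so that triple control 2 differed in the size of its deviations and not in these correlations. Over all tested genes the median deviation was 0.18 among the shortest genes (2595 bases or less) and -0.17 among the longest (6564 bases or more), against -0.1 to 0.09 and -0.07 to 0.12 in the other libraries. Without this library the median of the 37 genes in the triple knockout was 0.00, with 20 of 37 negative and none called. The difference between the Vhl/Hif2a and triple effects was then called for 24 genes, with a median of -0.55. Without triple knockout 1 it was called for 13 genes, with a median of -0.64. The cause of the length pattern was not tested.

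**Figure D5:**
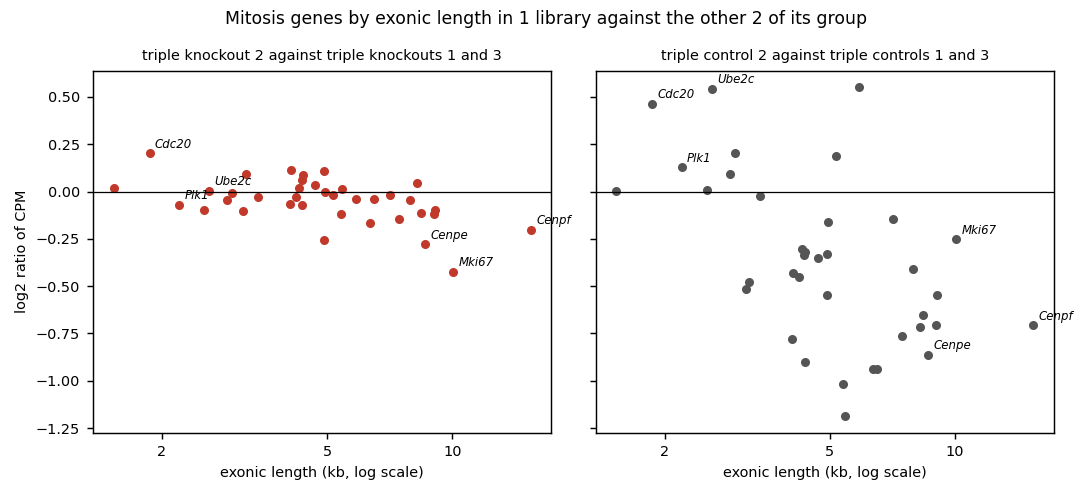
Log2 ratio of CPM in triple knockout 2 (left) and triple control 2 (right) to the mean log2 CPM of the other 2 libraries of the group, against exonic length in kilobases (log scale), for the 37 mitosis genes. In triple control 2, 27 genes lie below both other controls, and the short genes Cdc20 and Ube2c lie above 0. The points of triple knockout 2 lie closer to 0, with a median of -0.03, against -0.41 in triple control 2.

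Between the controls, no mitosis gene was called by edgeR. The Vhl/Hif2a control was above the Vhl/Hif1a control for 36 of the 37 genes by the sign of the log2 fold change, with a median of 0.16 and 7 genes higher at an unadjusted p under 0.05 (3.24% of all tested genes). By adjusted p, 0.341% of all tested genes were called, by DESeq2 none of the 37 was, and 48.9% of all tested genes had a negative log2 fold change. Mki67 had 264, 260 and 223 CPM in the Vhl/Hif2a control, against 136, 209 and 156 CPM in the Vhl/Hif1a control. The Vhl/Hif1a control against the triple control had a median of -0.09 (5.4% of all tested genes were called; 6 genes were lower and 1 higher at an unadjusted p under 0.05, against 13.4% and 11% of all tested genes), and DESeq2 called Cdc20 lower. For the Vhl/Hif2a control against the triple control the median was 0.06 (3.42% of all tested genes were called; 1 lower and 5 higher at an unadjusted p under 0.05, against 11.9% and 10.2%), and DESeq2 called Mki67 higher. Sex differed between the triple control and each of the other controls and cannot be told apart from the cross.

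Other genes of the cycle were taken as lists, whose counts stand against 7.01% of all tested genes called lower and 7.68% higher in the Vhl/Hif2a knockout, 1.42% lower and 2.22% higher in the Vhl/Hif1a knockout, and 0.0388% called in the triple knockout. Of 70 further mitosis genes, 28 fell and 1 rose in the Vhl/Hif2a knockout (median -0.44), 2 fell in the Vhl/Hif1a knockout (median -0.24), and none was called by edgeR in the triple knockout (median 0.04, with 2 lower and 3 higher at an unadjusted p under 0.05, against 8.08% lower and 3.43% higher of all tested genes). Knl1, a scaffold of the kinetochore, gave -0.83 ± 0.22 (adjusted p = 0.016) and Gtse1, a spindle protein, -0.77 ± 0.15 (adjusted p = 0.0022) in the Vhl/Hif2a knockout, and the gene that rose was the tubulin gene Tuba1c, at 0.43 ± 0.11 (adjusted p = 0.0092); Tuba1c has close paralogs, and reads may be shared with them. The condensin subunit gene Ncaph and the chromatin protein gene Hmgb2 were those lower in the Vhl/Hif1a knockout, at -0.4 ± 0.09 (adjusted p = 0.023) and -0.37 ± 0.09 (adjusted p = 0.023). Of 41 S phase genes, 20 fell in the Vhl/Hif2a knockout (median -0.40), 1 in the Vhl/Hif1a knockout (median -0.30) and none in the triple knockout (median 0.00, with 0 lower and 1 higher at an unadjusted p under 0.05 in edgeR). Clspn, for the replication checkpoint adaptor claspin, was lower in both, at -0.66 ± 0.12 (adjusted p = 0.00078) in the Vhl/Hif2a knockout and -0.47 ± 0.12 (adjusted p = 0.032) in the Vhl/Hif1a knockout, and Pole, for the catalytic subunit of DNA polymerase epsilon, gave -0.67 ± 0.14 (adjusted p = 0.0026) in the Vhl/Hif2a knockout.

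Of a list of 12 genes, all but B4galt3 regulators of G2 and M genes, Foxm1 alone was called, in the Vhl/Hif2a knockout. That share is near the 7.01% of all tested genes called lower there. B4galt3 encodes a galactosyltransferase and is not such a regulator, but it is part of the counts and medians of the list. The medians of the list were -0.14 in the Vhl/Hif2a knockout, -0.06 in the Vhl/Hif1a knockout and 0.06 in the triple knockout. Foxm1, for the transcription factor that activates the mitosis genes, had 22.6, 23.8 and 22.4 CPM in the Vhl/Hif2a knockout, against 34.8, 35 and 30.4 CPM in its control. Its groups did not overlap there, and the log2 fold change was -0.54 ± 0.08 (adjusted p = 0.00019), with -0.22 ± 0.08 (adjusted p = 0.19) in the Vhl/Hif1a knockout. Mybl2, for B-Myb, was at -0.34 ± 0.14 (adjusted p = 0.13) in the Vhl/Hif2a knockout. Of 17 G1 cyclins, G1 kinases and E2F genes, 5 fell in the Vhl/Hif2a knockout, and the medians were -0.14 there, -0.18 in the Vhl/Hif1a knockout and -0.02 in the triple knockout. E2f8 and E2f7, which encode repressors of E2F targets, were among the 5, at -0.79 ± 0.12 (adjusted p = 0.00023) for E2f8 and -0.71 ± 0.12 (adjusted p = 0.00073) for E2f7. Cdk6, a G1 kinase, was the 1 gene of that list called in the Vhl/Hif1a knockout, where it rose, just past the threshold, at 0.43 ± 0.11 (adjusted p = 0.05). Myc was not called in any knockout and stood at 0.64 ± 0.25 (adjusted p = 0.1) in the Vhl/Hif2a knockout.

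Of 19 genes that act as brakes on the cycle, 2 rose and 5 fell in the Vhl/Hif2a knockout, with a median of -0.24. The 2 that rose are a share near the 7.68% of all tested genes called higher, while 7.01% of all tested genes were called lower. None was called by edgeR in the Vhl/Hif1a knockout (median -0.10) or in the triple knockout (median -0.17). At an unadjusted p under 0.05, 1 was lower and 1 higher in the Vhl/Hif1a knockout, where 6.3% of all tested genes were lower. The share of all tested genes that were higher there at this threshold is not given here. By the same threshold 1 was lower and 0 higher in the triple knockout, against 8.08% and 3.43% of all tested genes. Cdkn1b encodes p27, an inhibitor of cyclin-dependent kinases. Cdkn1b had 126, 102 and 118 CPM in the Vhl/Hif2a knockout, against 66, 70.6 and 73.5 CPM in its control. The groups were far apart, at 0.72 ± 0.1 (adjusted p = 7.1e-05), and Cdkn1b stood at 0.12 ± 0.1 (adjusted p = 0.72) in the Vhl/Hif1a knockout. Ccng2, for cyclin G2, which is high in cells leaving the cycle, had 85.1, 62.5 and 81.6 CPM in the Vhl/Hif2a knockout, against 40.8, 48.5 and 56 CPM in its control, at 0.66 ± 0.12 (adjusted p = 0.00076). The neighbouring inhibitor genes Cdkn2a and Cdkn2b fell, at levels that were low in all libraries. Cdkn2b had 0.496, 0.248 and 0.448 CPM in the Vhl/Hif2a knockout, against 2.2, 2.39 and 1.12 CPM in its control, at -2.25 ± 0.39 (adjusted p = 7e-04), and Cdkn2a gave -2.51 ± 0.48 (adjusted p = 0.0014). Cdkn1a, for p21, was not called, at 0.34 ± 0.14 (adjusted p = 0.12) in the Vhl/Hif2a knockout and 0.43 ± 0.14 (adjusted p = 0.12) in the Vhl/Hif1a knockout. The calls of these other lists were not refitted with libraries left out.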

How the data were processed

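The submitters' processing notes name FastQC, cutadapt and STAR and the build GRCm38, without versions. How reads were assigned to genes, and with which annotation or strand setting, is not given in the sources used here, so reads of overlapping genes may be shared. The authors deposited 1 table, taken from its values to hold expected counts (89.251% of values were whole). These were rounded to whole counts and filtered with filterByExpr of edgeR 4.0.16 in R 4.3.3, which left 12900 genes. A quasi-likelihood model with TMM factors and a term for each of the 6 groups was fitted to the 18 libraries together, and p-values were adjusted by Benjamini-Hochberg over all tested genes, with calls under 0.05. SE is the size of the log2 fold change divided by the square root of F, which is approximate. DESeq2 1.42.0 was an alternative. Exonic lengths came from GENCODE M21 and promoters from RefSeq. The test was tried on simulated data.

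The 37 genes and the other lists (further mitosis genes, regulators, brakes, G1 genes, S phase genes and cell type markers) were chosen with earlier results of these data known. Named genes followed a rule: role exemplars, genes called in 2 knockouts or in a difference between effects, and extremes of each knockout were given by library, the rest by value; of other lists Foxm1, Mybl2, Cdkn1a, Cdkn1b, Myc and up to 2 called genes in each direction. Tpx2, Cdc25c, Hif1a and Epas1 were given by library after their values were seen. H2afz was not analysed here. Alternatives were other scalings, no filter, DESeq2, separate fits per comparison, a replicate block, leaving out each library and, added after seeing the data, a trend on gene length.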

Additional observations from a re-analysis of the deposited data

Results flagged for a closer look

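For 22 of the 37 mitosis genes, the effect in the libraries labelled Vhl/Hif2a knockout, in which Hif1a RNA was lower and Epas1 RNA higher, differed from that of the triple knockout by the test of the interaction (edgeR, adjusted p under 0.05), and in each the effect was lower in the Vhl/Hif2a knockout. Among kinases and cyclins the log2 difference was -0.89 for Ccnb1, -0.72 for Ccna2, -0.6 for Plk1, -0.5 for Cdk1 and -0.47 for Ccnb2. In the passenger complex it was -0.65 for Birc5 and -0.52 for Cdca8. Of the checkpoint and anaphase-promoting genes it was -0.73 for Mad2l1, -0.54 for Bub1b and -0.46 for Cdca3. At the kinetochore it was -1.01 for Cenpe, -0.94 for Cenpf, -0.87 for Spc25 and -0.85 for Nuf2. Of the spindle genes it was -0.91 for Nusap1, -0.89 for Kif11 and -0.68 for Ckap2l. Of the cytokinesis genes it was -0.74 for Kif20a, -0.74 for Prc1 and -0.59 for Racgap1. Top2a stood at -0.97 and Mki67 at -1.2. Of the 22 genes, 13 were called in each of the 12 fits that left out 1 library, and Cenpf, Nuf2, Mad2l1 and Cdca3 were called in 3 of the 12. The mice of the triple cross were male and those of the Vhl/Hif2a cross female by their Ddx3y and Xist levels, and sex cannot be told apart from genotype.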

How the results depend on the processing

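The count of mitosis genes called lower in the Vhl/Hif2a knockout, 29 as reported, was 27 to 31 under other scalings, without a filter, under DESeq2, in a fit of its own libraries and with the trend on gene length, and 20 to 23 with 1 library left out. The Vhl/Hif1a count of 6 was less stable: 9 with library totals alone and under DESeq2, 3 without a filter, 7 with the length trend, and 0 to 4 with 1 library left out. For the difference between the Vhl/Hif2a and triple effects, the count of 22 was 17 to 24 under the settings that left out no replicate and 13 to 27 with 1 left out. For the difference between the Vhl/Hif1a and triple effects, where none was called, DESeq2 called 2 and fits with 1 library left out 0 to 4. For the Vhl/Hif1a control against the triple control DESeq2 called 1 and fits with 1 library left out 0 to 2. The library numbers do not pair the samples (correlations of same-numbered deviations from -0.27 to 0.23), and with the replicate block the counts were 1 in the Vhl/Hif1a knockout, 28 in the Vhl/Hif2a knockout and 18 for the Vhl/Hif2a minus triple difference, and 0 elsewhere. Values near 0 changed sign. For Cdc20 the Vhl/Hif2a minus triple difference, 0.00 and positive as reported, was 0.00 with DESeq2 size factors and under DESeq2, -0.03 with library totals, -0.01 in the fit of those libraries and with the replicate block, -0.14 with the length trend, and -0.17 to 0.13 with 1 library left out. For Anln the same difference was 0.02 without a filter, 0.11 with the length trend and -0.11 to 0.16 with 1 library left out. With 1 library left out, the Anln value ranged from -0.01 to 0.13 in the Vhl/Hif1a knockout and from -0.03 to 0.24 in the triple knockout. In the triple knockout Birc5 ranged from 0.00 to 0.07, Bub1b from -0.05 to 0.09 and Ube2c from -0.31 to 0.04. The cause of these changes was not tested.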
